A study of Mus musculus with 4 samples.

Results

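The p53 pathway and its DNA damage response targets were followed here as 33 mouse genes, listed by name for their known place in the pathway. The list was chosen with earlier results of these data known. All 33 were found in the deposited count table of 21971 genes by matching Ensembl identifiers to symbols. The genes were measured by RNA-seq of rRNA-depleted RNA in NMuMG cells, which are mouse mammary epithelial cells widely used to study the switch to a mesenchymal state (EMT) that TGFβ brings about. In one stable line the cells expressed a mutated human TRF1 fused to the Vp16 transcription activation domain (Vp16-TRF1ΔN), which by the series description raises TERRA-like RNA, the noncoding RNA of telomeres. The comparison line expressed the mutated human TRF1 without Vp16 (TRF1ΔN), so both lines carry a foreign TRF1 and neither is parental NMuMG. Each line was sampled after 24 h of TGFβ at 5 ng/ml and at 0 h, which gives 4 groups of 1 library each: Vp16-TRF1ΔN at 24 h, Vp16-TRF1ΔN at 0 h, TRF1ΔN at 24 h and TRF1ΔN at 0 h. The labels do not say whether a line is 1 clone, and they name no 24 h culture without TGFβ, so time in culture and TGFβ cannot be told apart.

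The transcription factor p53 is held at a low level by Mdm2, a ubiquitin ligase that is itself a p53 target, and by its relative Mdm4. DNA damage and other stresses release p53, which then switches on genes that halt the cell cycle, repair DNA or start apoptosis. Several of these targets also answer to other signals: Gadd45b is known as a TGFβ-induced gene in epithelial cells, and some listed genes peak in dividing cells.

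The libraries held 35423556 to 46001039 counts. Mitochondrially encoded genes took a larger share after TGFβ, 15.7% (24 h) and 11.4% (0 h) of gene counts in Vp16-TRF1ΔN, and 13.3% (24 h) and 10.2% (0 h) in TRF1ΔN. The row for the TRF1ΔN construct had 159 counts (24 h) and 123 counts (0 h) in Vp16-TRF1ΔN, against 7798 counts (24 h) and 1863 counts (0 h) in TRF1ΔN. The lines thus differ in the counts of this row as well as in Vp16, and in TRF1ΔN the row was higher after TGFβ. Vector rows differ too. Vec_part1 had 33 and 32 counts (24 h and 0 h) in Vp16-TRF1ΔN, against 1132 and 422 in TRF1ΔN. Vec_part2 had 4352 and 5549 counts (24 h and 0 h) in Vp16-TRF1ΔN, against 16312 and 14844 in TRF1ΔN. The part of these construct and vector rows in the line and TGFβ comparisons below was not tested. Levels are given as CPM, the counts scaled to a common library size with edgeR's TMM factors. Of 8 epithelial markers looked for, 7 were in the table and 6 stood at 1 CPM or more in all 4 libraries, while Epcam, an epithelial adhesion gene, had 4 to 18 counts. These markers shifted with TGFβ too: 4 of the 7 were called lower (Krt19 at -3.42, Cdh1 at -1.46, Ocln and Tjp1) and 2 higher (the keratin genes Krt18 and Krt8) by edgeR, with a median log2 change of -0.47. Markers of other cells were low, with summed levels of 3.67 to 5.44 CPM for 5 immune genes and 0.0292 to 0.0713 CPM for 2 adipocyte genes. In no library did Ptprc, which defines leukocytes, exceed 7 counts, nor Pecam1 of endothelium 3 counts, nor Adipoq of fat cells 1 count. The 4 endothelial genes summed to 0.905 CPM (24 h) and 0.209 CPM (0 h) in Vp16-TRF1ΔN, and to 1.38 CPM (24 h) and 0.189 CPM (0 h) in TRF1ΔN. By edgeR 1 of them, Cdh5, was called higher with TGFβ (4 to 50 counts), as was 1 immune gene, Csf1r (1 to 101 counts). The summed level of 4 fibroblast genes was also higher after TGFβ, at 11.8 CPM (Vp16-TRF1ΔN, 24 h), 1.93 CPM (Vp16-TRF1ΔN, 0 h), 21.2 CPM (TRF1ΔN, 24 h) and 1.32 CPM (TRF1ΔN, 0 h). Most of this came from Col1a1, with Dcn at 0 to 2 counts. The part of these marker shifts in the results below was not tested.

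Promoter sequence was set beside the expression data because the p53 protein binds DNA as pairs of a ten-letter half-site. RefSeq promoter windows (build GRCm38.p6) were at hand for 26 of the 33 members, and the 250 bases before each transcription start were searched. A gene can have several RefSeq starts: the 26 members had 36 windows and all 27025 genes had 32851, and a match in any window of a gene was counted. A match to the p53 half-site, which reads the same way on both strands, occurred in 10 of these 26 members and in 8.2% of all 27025 genes with a window. The matches are shown because they mark where the letters lie in the members discussed below. Capitals mark the half-site, with 10 bases on either side, written 5′ to 3′ along the gene's strand, and distances are to the RefSeq start of the window. For Polk and Sesn1 that start lies 23392 and 77504 bases inside the gene, counted from its outermost start in the GENCODE annotation, and for the other 8 it lies 0 to 204 bases inside.
Trp53 (chr11:69580284-69580293, plus strand, 75 bases before the start): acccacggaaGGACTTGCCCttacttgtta
Mdm2 (chr10:117710935-117710944, minus strand, 186 bases before the start): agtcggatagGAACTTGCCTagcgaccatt
Ppm1d (chr11:85311122-85311131, plus strand, 132 bases before the start): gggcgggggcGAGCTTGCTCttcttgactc
Ccng1 (chr11:40755462-40755471, minus strand, 185 bases before the start): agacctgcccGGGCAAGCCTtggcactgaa
Ckap2 (chr8:22186013-22186022, minus strand, 203 bases before the start): ctgtgtctgaAGACATGTCCtgacttgtca
Gadd45a (chr6:67037438-67037447, minus strand, 40 bases before the start): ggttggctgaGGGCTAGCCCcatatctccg
Sesn1 (chr10:41887266-41887275, plus strand, 173 bases before the start): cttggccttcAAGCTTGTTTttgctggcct
Bax (chr7:45467090-45467099, minus strand, 201 bases before the start): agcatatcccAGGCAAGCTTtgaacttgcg
Aen (chr7:78895937-78895946, plus strand, 121 bases before the start): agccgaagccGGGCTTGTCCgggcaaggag
Polk (chr13:96519409-96519418, minus strand, 231 bases before the start): catgtagcttGAACTAGCCTcaaacttatt

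None of the 26 members with a window held a full site there, meaning 2 half-sites with at most 13 bases between them, and 0.0666% of all genes did. Inexact matches and sites outside these 250 bases were not searched. The motif TTTGAA, searched on both strands and known as an element of cell cycle promoters, was in 6 of the 26 members and in 18.3% of all genes. In Ckap2 it read as follows, with the motif in capitals and 12 bases on either side, 101 bases before the start.
Ckap2 (chr8:22185915-22185920, minus strand): gctttgttcgatTTTGAAatttctcgccgg
The AP-1 motif TGANTCA was in 2 members, Fas and Mdm4 (before a start 5145 bases inside the gene), and in 7.82% of all genes. In Bax a TTTGAA match overlaps the end of the half-site. These matches are letters in a window of 250 bases, not measured binding.

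Set against TGFβ, 9 of the 33 members were called with an average change of at least 2-fold. The share of all genes called at that size on average was not taken. Within single lines, by a rule given below, 16.0% (Vp16-TRF1ΔN) and 19.3% (TRF1ΔN) of 11777 genes were counted at 2-fold or more. The 3 Gadd45 genes and Pmaip1 rose, while Gdf15, Ckap2, Gtse1, Ddb2 and Bcl2l1 fell, each at least 2-fold on average. Trp53, Mdm2 and Mdm4 did not pass the test. In an additive model over all 4 libraries (edgeR's quasi-likelihood test, Benjamini-Hochberg adjustment over 14305 genes, called at an adjusted p under 0.05), 16 of the 33 members were called, 6 higher and 10 lower. The share of members called was 48.5%, against 48.5% of all genes tested, of which 23.1% were called higher and 25.4% lower. By number of calls the members were therefore at the background. By DESeq2's Wald test 11 members were called, 4 higher and 7 lower, against 34.9% of all genes (16.6% higher and 18.4% lower). The median log2 change of all 33 members in the edgeR fit was -0.11, against -0.01 over all genes tested. The model takes any difference between the lines' responses as noise and has 1 residual degree of freedom. Nothing says that the libraries came from separate cultures, so the p-values speak only of how these 4 libraries scatter, which may be technical.

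**Figure D1:**
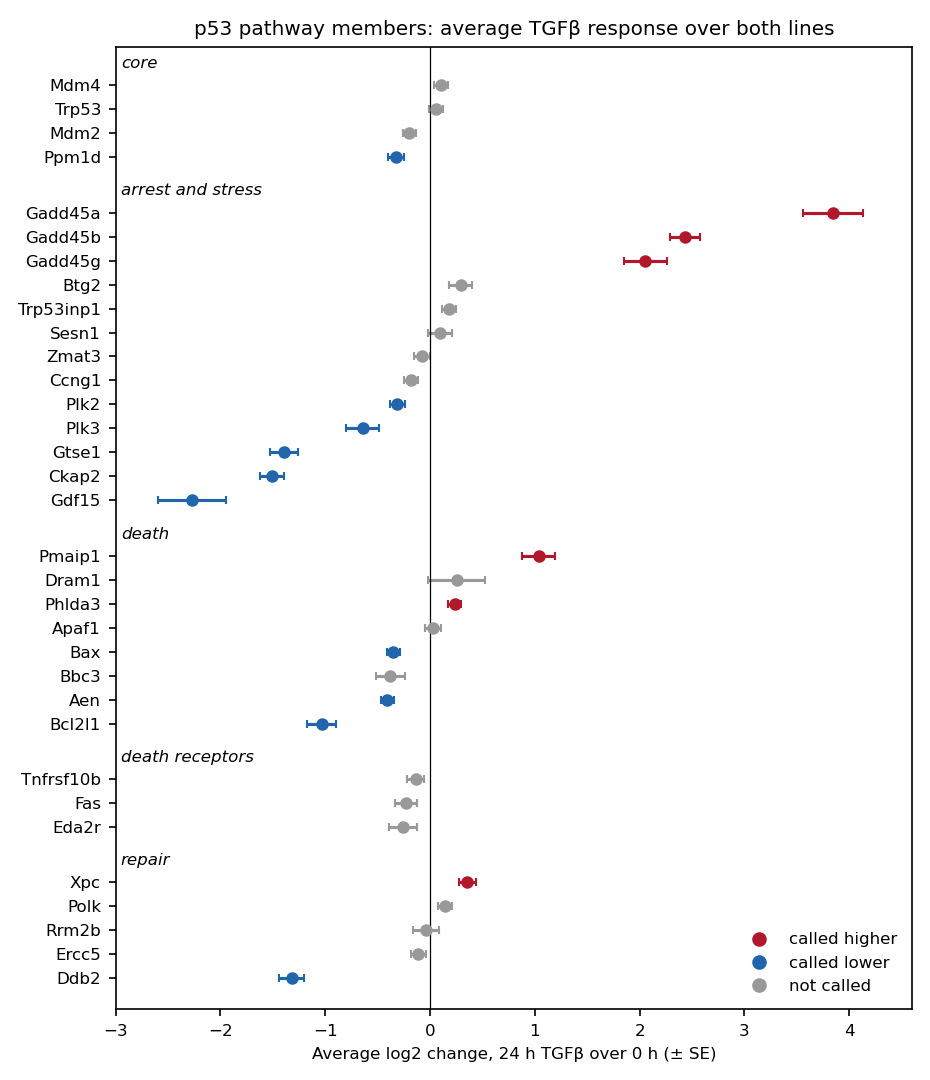
Average log2 change (24 h of TGFβ over 0 h, horizontal axis) of the 33 members, grouped by role, with bars for the SE of the edgeR fit and colour for the call. Gadd45a lies farthest to the right at 3.85 and Gdf15 farthest to the left at -2.27, while the p53 gene and its main inhibitors lie near 0.

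The p53 gene and its regulators moved little, with 1 of the 4 called (25%, against 48.5% of all genes tested). Trp53, the p53 gene, stood at 122 CPM in Vp16-TRF1ΔN at 24 h and 119.8 CPM at 0 h, and at 140.4 CPM in TRF1ΔN at 24 h and 131 CPM at 0 h. Both Vp16-TRF1ΔN libraries were thus below both TRF1ΔN libraries, and the average change with TGFβ was 0.06 ± 0.06 on the log2 scale (SE, adjusted p = 0.488, edgeR). Mdm2 had 224 and 261 CPM (24 h and 0 h) in Vp16-TRF1ΔN, and 258 and 292 CPM (24 h and 0 h) in TRF1ΔN. In each line the 24 h library was the lower one, and the average log2 change of -0.20 ± 0.06 did not pass (adjusted p = 0.0585, edgeR).

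Of the members that did not pass, Mdm2 had the smallest adjusted p: with mitochondrially encoded genes left out before scaling it passed (adjusted p = 0.0422, edgeR), and DESeq2's Wald test did not call it (adjusted p = 0.222). Mdm4, whose product masks p53's activation domain, ranged from 77.0 to 84.5 CPM over the 4 libraries (log2 change 0.10 ± 0.06, adjusted p = 0.243, edgeR). Ppm1d, a phosphatase that ends damage signalling, had 26.4 and 31.8 CPM (24 h and 0 h) in Vp16-TRF1ΔN and 24.7 and 32.2 CPM (24 h and 0 h) in TRF1ΔN. Its 24 h levels lay below its 0 h levels without overlap, and its log2 change was -0.33 ± 0.08 (adjusted p = 0.0296, edgeR), a call that DESeq2 did not make (adjusted p = 0.150).

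Among the 13 genes of cell cycle arrest and stress, 3 rose (23.1%), 5 fell (38.5%) and 5 were not called, while 23.1% of all genes tested rose and 25.4% fell. The 3 that rose were the Gadd45 family. Its products are small stress proteins that bind PCNA and activate a kinase upstream of p38. Gadd45a had 83.7 CPM in Vp16-TRF1ΔN at 24 h and 8.47 CPM at 0 h, and 155 CPM in TRF1ΔN at 24 h and 7.43 CPM at 0 h. The lines were alike before treatment (1.14-fold higher in Vp16-TRF1ΔN, 95% counting interval 0.982 to 1.32), and after it Vp16-TRF1ΔN reached the lower level. The rise was 9.88-fold (8.86 to 11.1) in Vp16-TRF1ΔN and 20.9-fold (18.7 to 23.3) in TRF1ΔN, with an average log2 change of 3.85 ± 0.29 (adjusted p = 0.00181, edgeR). Of 14305 genes tested, Gadd45a ranked 194th among the largest rises.

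Gadd45b was also highest in TRF1ΔN at 24 h, with 58.5 and 12.9 CPM (24 h and 0 h) in Vp16-TRF1ΔN and 93.6 and 14.6 CPM (24 h and 0 h) in TRF1ΔN. It rose 4.54-fold (4.13 to 4.99) in Vp16-TRF1ΔN and 6.40-fold (5.90 to 6.95) in TRF1ΔN, on average by 2.43 ± 0.14 (adjusted p = 0.00121, edgeR). Gadd45g had 61.3 and 19.4 CPM (24 h and 0 h) in Vp16-TRF1ΔN, against 111 and 20.5 CPM (24 h and 0 h) in TRF1ΔN. Its 24 h levels were the highest in both lines, and the average rise was 2.06 ± 0.20 (adjusted p = 0.00315, edgeR). All 3 genes were at 24 h 1.60 to 1.85-fold lower in Vp16-TRF1ΔN than in TRF1ΔN, a difference between single libraries that has no test.

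**Figure D2:**
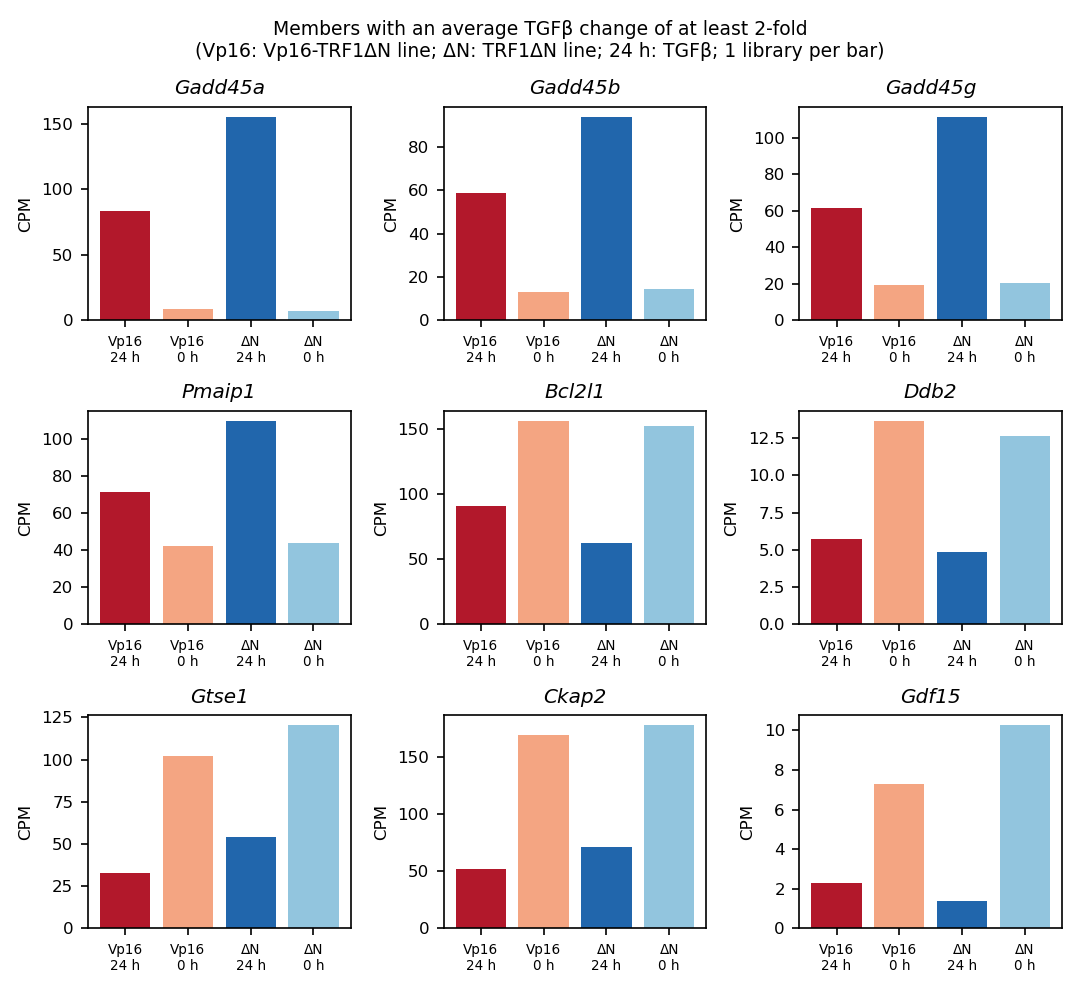
CPM (vertical axis, from 0) in each of the 4 libraries for the 9 members called with an average change of at least 2-fold, 1 bar per library. The 24 h bars of Gadd45a, Gadd45b, Gadd45g and Pmaip1 stand above the 0 h bars in both lines, and those of the other 5 genes stand below them.

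Gdf15, a secreted cytokine of the TGFβ superfamily that is widely used as a stress marker, moved the other way. It had 78 counts in Vp16-TRF1ΔN at 24 h and 315 at 0 h, and 59 counts in TRF1ΔN at 24 h and 489 at 0 h, that is 2.28, 7.31, 1.40 and 10.3 CPM in that order of libraries. Both 24 h libraries were far below both 0 h libraries, by 3.21-fold (2.50 to 4.17) in Vp16-TRF1ΔN and 7.32-fold (5.58 to 9.77) in TRF1ΔN. The average log2 change of Gdf15 was -2.27 ± 0.32 (adjusted p = 0.00690, edgeR).

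The members known from dividing cells fell. Ckap2, a spindle protein, had 52.1 and 169 CPM (24 h and 0 h) in Vp16-TRF1ΔN, and 71.0 and 177 CPM (24 h and 0 h) in TRF1ΔN. Its average log2 change was -1.51 ± 0.11 (adjusted p = 0.00180, edgeR). Gtse1, a microtubule-binding protein of G2 and S phase that restrains p53, had 32.9 and 102 CPM in Vp16-TRF1ΔN (24 h and 0 h), and 53.9 and 120.4 CPM in TRF1ΔN (24 h and 0 h), and fell by 1.39 ± 0.13 (adjusted p = 0.00285, edgeR). Both genes moved beside a list of 20 proliferation genes, all of which fell (median log2 change -1.56, with medians of -1.77 within Vp16-TRF1ΔN and -1.37 within TRF1ΔN), led by the replication genes Cdc6 (-2.64) and Mcm5 (-2.27). Whether the fall of Ckap2 and Gtse1 is more than that of dividing cells in general was not tested. Fewer dividing cells and less RNA per cell cannot be told apart in bulk RNA.

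Plk2 and Plk3, stress-induced kinases of the Polo family, fell by less. Plk2 had 122 and 143 CPM (24 h and 0 h) in Vp16-TRF1ΔN and 126 and 166 CPM (24 h and 0 h) in TRF1ΔN (log2 change -0.31 ± 0.07, adjusted p = 0.0243, edgeR). Plk3 had 105 counts (24 h) and 215 counts (0 h) in Vp16-TRF1ΔN and 150 counts (24 h) and 255 counts (0 h) in TRF1ΔN (log2 change -0.64 ± 0.16, adjusted p = 0.0298, edgeR). DESeq2's Wald test called neither (adjusted p of 0.0537 for Plk2 and 0.166 for Plk3). The antiproliferative gene Btg2 (log2 change 0.29, adjusted p = 0.0886), the cyclin G1 gene Ccng1 (-0.19, adjusted p = 0.0811), Sesn1, Zmat3 and Trp53inp1 were not called by edgeR. Without a filter on low counts Btg2 and Ccng1 passed, at adjusted p of 0.0472 and 0.0454 (edgeR).

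Ccng1 is a direct p53 target and was by far the most abundant member per length of its joined annotated exons, which is not the length of any 1 transcript. Its level was 301 to 350 RPKM (CPM per kilobase of exon) over the 4 libraries. Phlda3, at 88.1 to 116 RPKM, came next, and neither range overlapped its neighbour's. Below these 2 genes most neighbours in the order of levels overlapped, down to Dram1 at 0.450 to 0.680 RPKM. The gene of p53 itself ranked the ninth of the 33, at 29.6 to 34.7 RPKM.

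Genes of cell death moved in both directions, with 2 of 8 higher (25%), 3 lower (37.5%) and 3 not called. Over all genes tested 23.1% were called higher and 25.4% lower. Pmaip1 encodes Noxa, a protein that blocks the survival factor Mcl1, and had 71.1 and 42.5 CPM (24 h and 0 h) in Vp16-TRF1ΔN and 109.6 and 43.7 CPM (24 h and 0 h) in TRF1ΔN. It rose by 1.04 ± 0.15 on the log2 scale (adjusted p = 0.00783, edgeR), 1.67-fold (1.57 to 1.78) in Vp16-TRF1ΔN and 2.51-fold (2.38 to 2.64) in TRF1ΔN. Bcl2l1, the gene of the survival factor Bcl-xL, had 91.0 and 156 CPM (24 h and 0 h) in Vp16-TRF1ΔN and 62.2 and 152 CPM (24 h and 0 h) in TRF1ΔN. Levels at 0 h were alike in the lines, and Bcl2l1 fell by 1.03 ± 0.14 (adjusted p = 0.00607, edgeR).

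The gene of Bax, which opens the mitochondrial outer membrane, had 79.9 and 103 CPM (24 h and 0 h) in Vp16-TRF1ΔN and 87.7 and 111 CPM (24 h and 0 h) in TRF1ΔN. The decrease was nearly the same in the lines, 1.29-fold (1.23 to 1.35) in Vp16-TRF1ΔN and 1.26-fold (1.21 to 1.32) in TRF1ΔN (adjusted p = 0.0124, edgeR). Aen, an apoptosis-linked nuclease, had 88.9 and 120.1 CPM (24 h and 0 h) in Vp16-TRF1ΔN and 108.7 and 142 CPM (24 h and 0 h) in TRF1ΔN, and fell by 0.41 ± 0.06 (adjusted p = 0.00851, edgeR). In the fit without a term for the line, the call for Aen was lost (adjusted p = 0.0718).

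Phlda3, which restrains the survival kinase Akt, had 157 and 137 CPM (24 h and 0 h) in Vp16-TRF1ΔN and 181 and 149 CPM (24 h and 0 h) in TRF1ΔN. This small rise of 0.23 ± 0.065 passed in edgeR (adjusted p = 0.0416) and not in DESeq2 (adjusted p = 0.138). Bbc3, the gene of the death activator Puma (log2 change -0.38, adjusted p = 0.0825), Apaf1, which builds the apoptosome (0.03), and the autophagy gene Dram1 (0.25, with 58 to 71 counts per library) were not called by edgeR. None of the 3 death receptor genes passed either: Fas, the TRAIL receptor gene Tnfrsf10b and Eda2r, a receptor for ectodysplasin A2, had log2 changes of -0.23, -0.14 and -0.26.

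Of 5 repair genes, 1 rose and 1 fell, both sensors of ultraviolet damage (20% each, against 23.1% higher and 25.4% lower of all genes tested). Ddb2, which finds the lesions in chromatin, had 196 counts in Vp16-TRF1ΔN at 24 h and 588 at 0 h, and 204 counts in TRF1ΔN at 24 h and 604 at 0 h. The 24 h levels were 2.39-fold (2.03 to 2.82) lower in Vp16-TRF1ΔN and 2.62-fold (2.23 to 3.08) lower in TRF1ΔN, and Ddb2 fell by 1.32 ± 0.12 on average (adjusted p = 0.00258, edgeR). It shares 652 exonic bases with Acp2 on the opposite strand, a gene with 1697 to 2439 counts. The strand setting is not given in the sources used here, so reads in that stretch cannot be assigned to 1 of the 2 genes. Exonic bases are shared likewise by Gadd45a (337 bases, with a gene of 24 to 30 counts), Plk3 (84 bases, with a gene of 2 to 5 counts) and, on the same strand, Bax (192 bases).

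Xpc, the partner sensor, had 38.3 and 31.5 CPM (24 h and 0 h) in Vp16-TRF1ΔN and 39.3 and 29.1 CPM (24 h and 0 h) in TRF1ΔN. It rose by 0.36 ± 0.08 (adjusted p = 0.0234, edgeR), while DESeq2 gave an adjusted p of 0.0795. The incision nuclease gene Ercc5 (log2 change -0.11), the translesion polymerase gene Polk (0.14) and Rrm2b, the p53-induced subunit of ribonucleotide reductase (-0.04), were not called by edgeR. Among the 10 members with a p53 half-site in the window, 1 was called higher, 4 lower and 5 not at all. For the 16 with a window and no match the counts were 3, 5 and 8. Of all genes tested, 23.1% were called higher and 25.4% lower. Calls were not counted over all genes with a half-site, and a link between half-site and response was not tested.

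**Figure D3:**
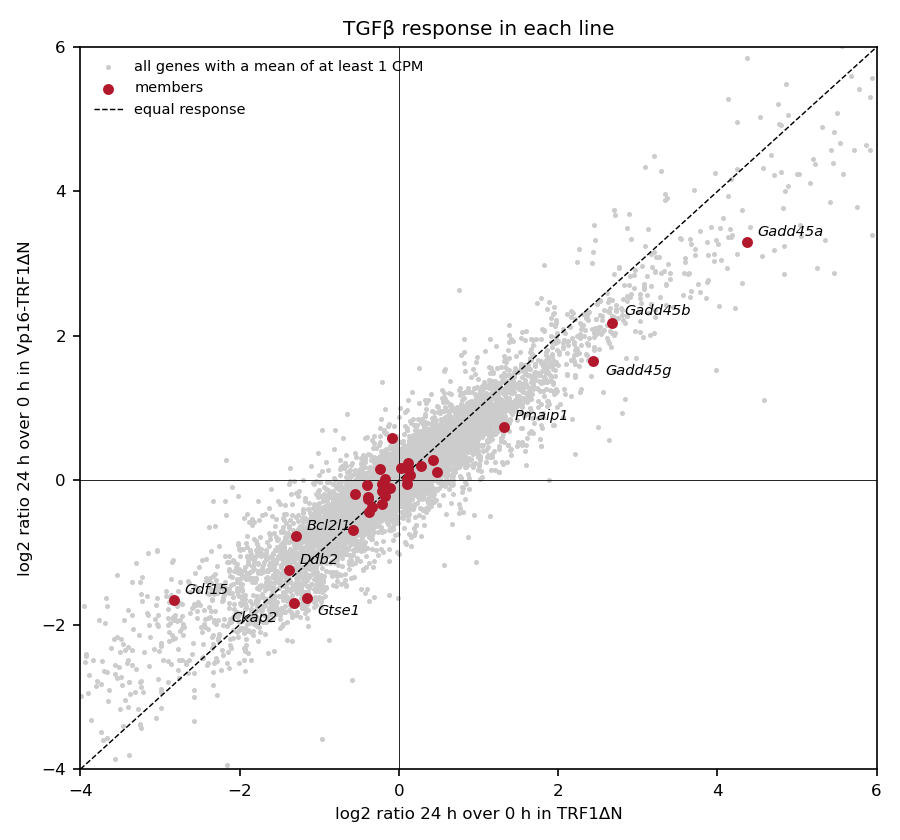
Log2 ratio of 24 h over 0 h in Vp16-TRF1ΔN (vertical axis) against the same ratio in TRF1ΔN (horizontal axis), with members in red, other genes (mean 1 CPM or more) in grey and a dashed line of equal response; genes beyond the axes are not drawn. Gadd45a lies at 3.30 (Vp16-TRF1ΔN) and 4.37 (TRF1ΔN), Gdf15 at -1.66 and -2.83.

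Responses were then compared between the lines, for which there is no test, since each line has 1 library per time. Of the 33 members, 29 had a ratio of the same sign in both lines, as did 85.9% of all genes tested. All 16 called members were among these, and 7 of them moved at least 2-fold in both. The additive fit favours genes that move alike in both lines, so the shared sign largely follows from the call. These counts were not taken over all called genes. Counted at 2-fold or more, with a mean of 1 CPM or more and a counting interval that excludes no change, 3 members were higher and 4 lower with TGFβ in Vp16-TRF1ΔN, where 6.92% of 11777 genes were counted higher and 9.09% lower (16.0% in all). In TRF1ΔN the members' counts were 4 and 5, against 8.4% and 10.9% of genes (19.3% in all). Each of the 6 members called higher rose less in Vp16-TRF1ΔN than in TRF1ΔN, as did 68.3% of all genes called higher. Of the 10 called lower, 5 fell less in Vp16-TRF1ΔN and 5 fell more, while 63.0% of all genes called lower fell less there.

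A member was counted as differing when the log2 responses lay at least 1 apart, the mean reached 1 CPM and the 95% counting interval excluded 0. By this rule 2 of the 33 members were counted (1 more positive and 1 more negative in Vp16-TRF1ΔN), against 2.73% of 11777 genes (1.82% more positive and 0.909% more negative). Gadd45a differed by -1.08 (Vp16-TRF1ΔN minus TRF1ΔN, interval -1.30 to -0.86), the weaker rise in Vp16-TRF1ΔN. Gdf15 differed by 1.17 (interval 0.65 to 1.69), the weaker fall in Vp16-TRF1ΔN. The members next in size were Gadd45g (-0.78, -0.93 to -0.63), Dram1 (0.67, -0.03 to 1.37) and Pmaip1 (-0.58, -0.70 to -0.47).

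Averaged over both times, the lines showed no called difference in any member. In the same edgeR fit 0 of 33 members and 0.0% of the 14305 genes passed, while at an unadjusted p under 0.05 the numbers were 6 members and 1779 genes (12.4%). By DESeq2's Wald test 47 genes were called, 0.356% of those with an adjusted p (0.0985% higher and 0.258% lower), and 1 of them was a member, Eda2r, which was lower. The median log2 difference of the members was -0.05, against -0.01 over all genes tested.

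Eda2r was the member that set the lines apart. The gene lies on the X chromosome (GRCm38 X, 97333840 to 97377216). It had 94 counts in Vp16-TRF1ΔN at 24 h and 149 at 0 h, against 432 counts in TRF1ΔN at 24 h and 565 at 0 h. Both Vp16-TRF1ΔN libraries lay well below both TRF1ΔN libraries, at 2.74 and 3.46 CPM (24 h and 0 h) against 10.3 and 11.9 CPM. The level was 3.74-fold lower in Vp16-TRF1ΔN at 24 h (2.99 to 4.73) and 3.43-fold lower at 0 h (2.86 to 4.14).

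Its average log2 difference of -1.84 ± 0.14 had an unadjusted p of 9.47e-05 and an adjusted p of 0.169 in edgeR, whereas DESeq2 gave an adjusted p of 4.94e-07. Without a filter on low counts edgeR called it too (adjusted p = 0.000420). Ranked by the log2 ratio among 11777 genes, Eda2r was the 33rd lowest at 24 h and the 18th lowest at 0 h. By the 2-fold rule it was the 1 member counted as different at either time, and at both times it was lower in Vp16-TRF1ΔN, where 3.29% of genes were counted at 24 h (2.11% higher and 1.18% lower) and 0.594% at 0 h (0.178% higher and 0.416% lower). The lines share no parental control here, so the values do not say whether Vp16-TRF1ΔN is low or TRF1ΔN high. The lines also differ in the counts of the TRF1ΔN construct row and the vector rows, whose part in this difference was not tested.

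**Figure D4:**
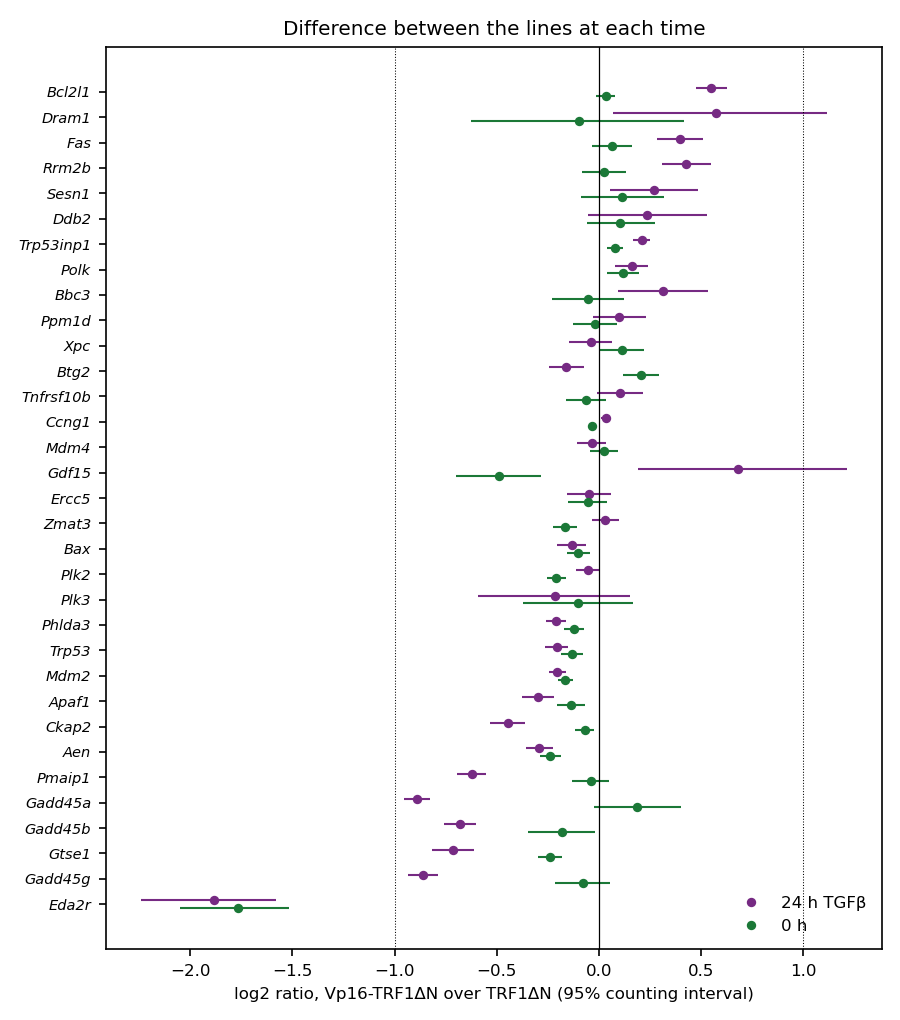
Log2 ratio of Vp16-TRF1ΔN over TRF1ΔN (horizontal axis) for each member at 24 h of TGFβ and at 0 h, with 95% counting intervals as bars and dotted lines at a 2-fold difference. Eda2r lies beyond the 2-fold line at both times, and the Gadd45 genes, Gtse1 and Pmaip1 are lower in Vp16-TRF1ΔN at 24 h by less than 2-fold.

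Genes around the pathway were read from 6 lists, likewise chosen with earlier results of these data known, in the same test of the average TGFβ response. Of 30 other p53 targets listed, 27 were tested, and 16 fell, 4 rose and 7 were not called (59.3% called lower, against 25.4% of all genes; median log2 change -0.39). Cdkn1a, which encodes p21 and halts the cell cycle, had 76.5 and 108.9 CPM (24 h and 0 h) in Vp16-TRF1ΔN and 77.7 and 118 CPM (24 h and 0 h) in TRF1ΔN, and fell by 0.56 ± 0.07 (adjusted p = 0.00454, edgeR). The detoxifying hydrolase gene Ephx1 (-1.96) and Kitlg, the gene of stem cell factor (-1.46), fell most in this list, although DESeq2 did not call Kitlg (adjusted p = 0.131). Ddit4, an mTORC1 inhibitor (1.59), and the macrophage growth factor gene Csf1 (0.70) rose most.

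Damage sensors and checkpoint kinases mostly fell: 18 of 23 were called lower (78.3%, against 25.4% of all genes tested), 2 higher and 3 not at all. Their median was -0.61. Clspn, an adaptor of the checkpoint kinase Chk1 (-1.70), and H2ax, the histone marked at DNA breaks (-1.44), were lowest. Trp53bp1 (0.42) and Prkdc (0.36), both of which act in end joining, rose. In the nucleotide excision repair list 7 of 18 fell (38.9%, against 25.4% of all genes tested) and 4 rose (22.2%, against 23.1%). They ranged from the DNA ligase gene Lig1 (-1.92) and the single-strand binding gene Rpa2 (-1.86), both also used in replication, to Ercc1 (0.55) and Ddb1, the partner of Ddb2 (0.69). Several genes of the damage and repair lists are replication genes as well, and the 20 proliferation genes described above fell in the same libraries; their part in these counts was not tested.

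Regulators of p53 gave 4 rises and 3 falls among 18 tested (22.2% and 16.7%, against 23.1% and 25.4% of all genes tested). Ppp1r13l, an inhibitor of p53 of the ASPP family, rose by 2.23 ± 0.14 on the log2 scale (adjusted p = 0.00139, edgeR), to 29.5 CPM in Vp16-TRF1ΔN at 24 h, against 7.45 CPM at 0 h, and to 42.1 CPM in TRF1ΔN at 24 h, against 7.66 CPM at 0 h. The deacetylase gene Sirt1 (0.43) rose, and the p53 deubiquitinase gene Usp10 (-0.49) and Ppp1r13b (-0.40) fell. DESeq2 called neither Sirt1 (adjusted p = 0.0738) nor Ppp1r13b (adjusted p = 0.0776).

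Among the Bcl2 family and caspases, 4 of 18 rose (22.2%, against 23.1% of all genes tested) and 6 fell (33.3%, against 25.4%), with a median of -0.15. The death activators Bmf (1.57) and Bcl2l11, which encodes Bim (1.09), rose most. None of the genes in these 6 lists was called between the lines by edgeR, nor was any of the 14305 genes tested. That result therefore does not set the lists apart from other genes. The 2-fold rule at 24 h took in 26 of the other p53 targets. Of these, 2 were counted as higher in Vp16-TRF1ΔN, Ephx1 and Kitlg, and 0 as lower. Over 11777 genes the shares were 2.11% higher and 1.18% lower.

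**Figure D5:**
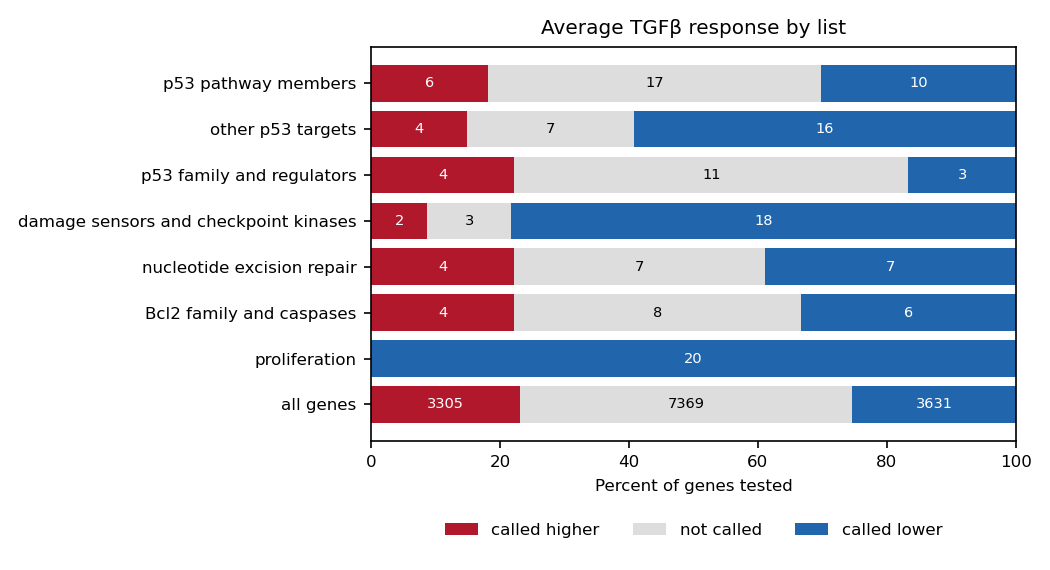
Percent of genes tested (horizontal axis) that were called higher, not called or called lower in the average TGFβ response, for the members, 6 other lists and all genes; numbers in the bars are genes. The members' bar is close to that of all genes, while the bars of damage sensors (18 of 23) and proliferation genes (20 of 20) are mostly lower.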

How the data were processed

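Per the submitters' processing notes, the tools used on the rRNA-depleted RNA reads were FastQC, STAR, HTSeq and DESeq2 with mm10, whose versions, annotation and strand setting were not given in the sources used here. Tests used the table of raw counts per gene that the authors deposited. The authors' normalized values are on a log2 scale (1 is added after each count is divided by its library's size factor), as the deposited numbers show; they served to check that table and gave the size factors that DESeq2 gives (0.832 and 1.04 for Vp16-TRF1ΔN at 24 h and 0 h, 1.02 and 1.15 for TRF1ΔN at 24 h and 0 h). Construct rows (4, with 0.0129% to 0.0582% of counts) were kept out.

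Symbols came from GENCODE M21 (21889 of 21971 genes), with RefSeq synonyms. TMM scaling over all genes, filterByExpr (14305 genes kept) and a quasi-likelihood fit with terms for line and time were run in edgeR 4.0.16 (R 4.3.3). DESeq2 1.42.0 was an alternative. SEs are the size of the log2 change over the root of the F statistic. Ratios within a line or time use a prior count of 2, folds use CPM, and intervals are exact conditional 95% intervals (for the difference of responses, from Poisson variances) that cover counting error only. Such a gene was counted at 2-fold or more, a mean of 1 CPM or more and an interval that excludes no difference.

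On simulated counts, 199 of 200 genes with a 2-fold TGFβ change were recovered, and 197 of 200 for the line term (14029 genes fitted). The 425 calls for each term also held 200 of 200 genes with a 4-fold change, with 26 false for TGFβ and 28 for the line. Every simulated gene had the same biological coefficient of variation (0.0931) and the same response in both lines. The simulation therefore does not say how many changes are found in the real libraries, where differences between the lines' responses enter as noise. RPKM uses the union of GENCODE exons. Members, lists, motifs and alternatives were chosen with earlier results of these data known. Values in all libraries are given for Trp53, Mdm2, Mdm4, members called in either test and members counted between lines; of the other lists, Cdkn1a and the 2 highest and 2 lowest called genes are named, except some that are not reported here.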

Additional observations from a re-analysis of the deposited data

Results flagged for a closer look

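Rrm2b, the p53-induced subunit of ribonucleotide reductase, moved in opposite directions in the lines, with a log2 ratio of 24 h over 0 h of 0.16 in Vp16-TRF1ΔN and -0.24 in TRF1ΔN, and counting intervals that exclude no change in both. The difference was not tested, and the gene shares 734 exonic bases with an annotated antisense gene. The construct row named VP16, which enters no comparison, had 27 counts at 24 h and 15 counts at 0 h in the Vp16-TRF1ΔN libraries, against 1 count at 24 h and 0 counts at 0 h in the TRF1ΔN libraries, as the labels name the lines.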

How the results depend on the processing

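In 6 alternatives to the test of the average TGFβ response, all 16 called members kept their sign and 10 kept their call in each; Ppm1d, Plk2, Plk3, Aen, Xpc and Phlda3 lost it in at least 1. For the line difference, where 0 genes were called, DESeq2's Wald test called 13 genes higher and 34 lower, no filter on low counts gave 28 and 81, and leaving out mitochondrially encoded genes gave 0 and 4; of members, 1 was called lower by DESeq2 and 1 without the filter. With a mean of at least 5 CPM required, the untested counts over all genes moved to 529 higher with TGFβ in Vp16-TRF1ΔN, 141 higher and 57 lower between the lines at 24 h, 3 and 15 at 0 h, and 119 and 45 for the difference of responses, since fewer genes enter; members' counts did not move. No scaling moved the median of all genes by 0.1 on the log2 scale. No paired analysis was possible because each group has 1 library and the labels carry no replicate numbers; the term for line does set 24 h against 0 h within each line, and without it edgeR's calls of Plk2 (adjusted p = 0.0551), Aen (adjusted p = 0.0718) and Phlda3 (adjusted p = 0.130) were lost. With 1 library a group, no replicate could be left out. Depth limits Dram1, Gdf15, Eda2r and Plk3 most, whose lowest library counts were 58, 59, 94 and 105.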
